A study of Mus musculus with 12 samples.

Results

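The disease-associated microglia markers described here are 10 genes: Axl, Cst7, Spp1, Igf1, Lgals1, Lgals3, Cd9, Cd63, Fabp5 and Gpnmb. They were taken by gene name from tables that list 41325 genes, and all 10 were found. Disease-associated microglia are a state of the brain's resident macrophages that was described around amyloid plaques in mouse models of Alzheimer's disease. In that state genes of lysosomes, lipid handling and phagocytosis rise while genes of resting, or homeostatic, microglia fall. The markers belong to different steps of it. Axl is a receptor for dying cells, Spp1, Igf1 and the galectins can act outside the cell, and Cst7, Cd63, Cd9, Gpnmb and Fabp5 act in lysosomes, membranes and fat handling.

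RNA was sequenced from IMG cells, an immortalised microglial line from the mouse, here of wild type genotype and C57Bl6/J strain and all at 1 passage. There were 3 groups of 4 libraries, exposed for 8 h to fAb, oAb or scramble. fAb and oAb are preparations of amyloid beta, the peptide of Alzheimer plaques, and scramble is the control. The design text attaches the word oligomeric to fAb and fibrillar to oAb, against the usual reading of the abbreviations, so the groups keep their short names here. An immortalised line lacks the brain tissue around microglia, which limits it as a model, and the labels do not say that the 4 libraries of a group came from separate cultures. The p-values therefore measure the spread between these libraries, which may be technical. In a bulk library, a smaller share of cells in a state and less RNA per cell cannot be told apart.

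Each library held 13638721 to 18124419 counts, of which the 10 markers took 0.656% to 0.725%. Mitochondrially encoded transcripts took 2.73% to 3.37% of the counts in the fAb and oAb libraries and 4.18% to 4.94% in the scramble libraries. Scramble library 3 stood apart. Ribosomal protein genes took 12.0% of its counts, against 7.03% to 7.62% in the other controls, and its correlation to them over log2 CPM was 0.926 to 0.956, against 0.980 to 0.992 among the others. The libraries also split across the groups by which copy of a near-identical gene pair received the reads. In the Timm23 set, which holds oAb libraries 1 and 2 and scramble libraries 2, 3 and 4, over 50% of the pair's counts were at Timm23. In the Gm10273 set, which holds all fAb libraries, oAb libraries 3 and 4 and scramble library 1, most were at Gm10273. The part of these splits in the results was not tested beyond the values given beside them.

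By edgeR with all libraries, both preparations gave the same division of the markers. Against scramble, 5 of the 10 rose (Axl, Spp1, Cst7, Fabp5 and Igf1), 1 fell (Cd9) and 4 did not pass the test (Cd63, Gpnmb, Lgals1 and Lgals3), in fAb and in oAb libraries alike. The test was edgeR's quasi-likelihood F test, two-sided, with Benjamini-Hochberg adjustment over all genes tested and a threshold of 0.05. Igf1 in oAb passed narrowly (adjusted p = 0.0484). In the authors' deposited table it did not pass (adjusted p = 0.0898), nor did Cd9 in fAb (adjusted p = 0.146), so the equal division depends on the test. In fAb against scramble, 3051 of 11074 genes tested were higher (27.6%) and 3184 lower (28.8%), 56.3% in all. In oAb against scramble, 2777 of 11033 were higher (25.2%) and 2984 lower (27.0%), 52.2% in all. The share of markers that passed, 6 of 10, is therefore near that of all genes, and the 2 comparisons share their scramble libraries. Counts in the gene lists below stand beside the same shares of all genes. The median log2 fold change of the markers was 0.27 in fAb and 0.20 in oAb against scramble, beside -0.04 and -0.07 over all genes tested. Without scramble library 3, 6 markers rose in either comparison, and 2 fell in fAb and 1 in oAb against scramble. More of all genes passed in that setting too, 7598 of 11169 tested in fAb and 7174 of 11148 in oAb against scramble. Under upper quartile scaling, where more of all genes were lower, 4 markers rose and 3 fell in fAb against scramble. In oAb against scramble 3 rose and 2 fell there.

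**Figure D1:**
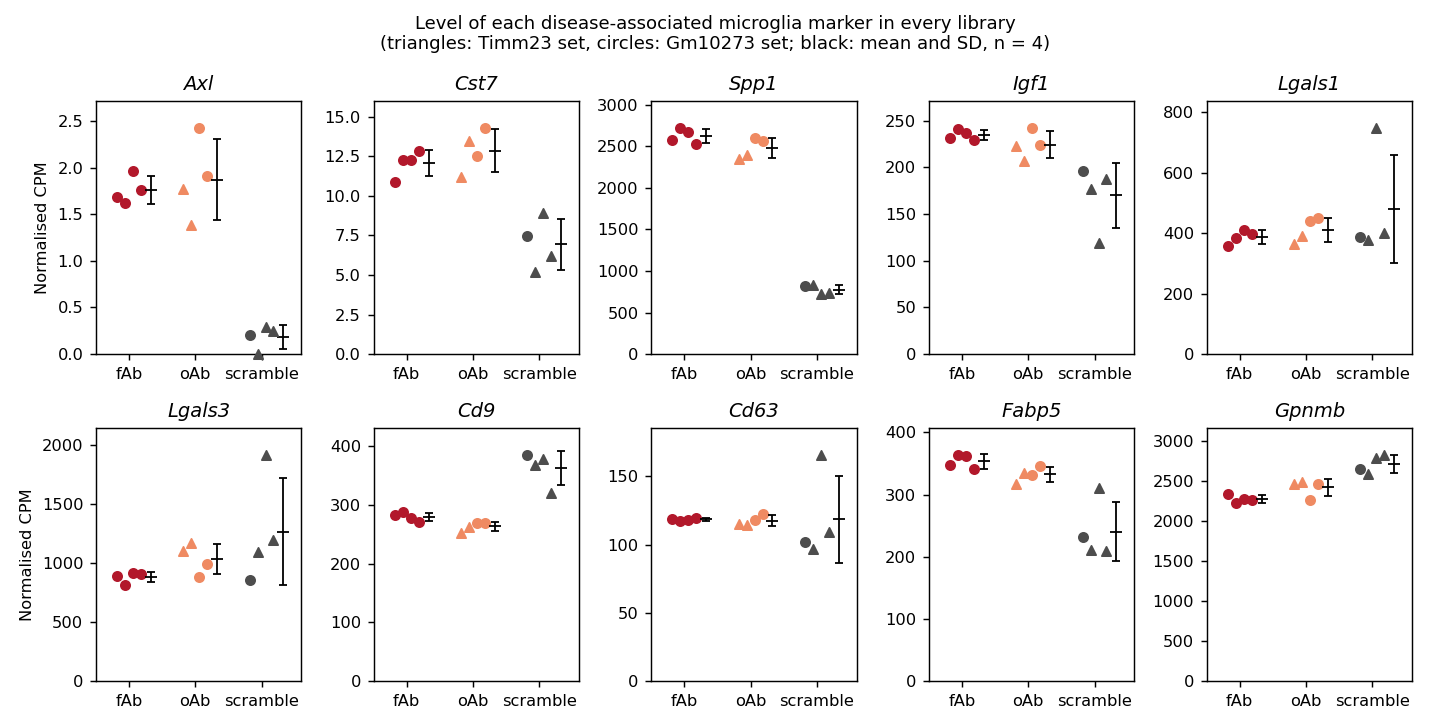
Normalised CPM (counts scaled to library size) of each marker in every library, on axes that start at 0, with the mean and SD of the 4 libraries in black. All fAb and oAb libraries lie above all scramble libraries for Axl, Cst7, Spp1, Igf1 and Fabp5 and below them for Cd9 and Gpnmb, and scramble library 3 (the third point of its group) is the highest control for Lgals1, Lgals3, Cd63 and Fabp5. The share of all genes whose libraries separate in this way, here and for single markers below, was not counted.

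Axl (chr7:25757273-25788705, minus strand, mm10 as for all gene positions here) encodes a receptor tyrosine kinase of the TAM family, which recognises dying cells through the bridging ligand Gas6. It was the least abundant marker. It had 29, 29, 30 and 29 counts in the fAb libraries and 27, 19, 37 and 30 in the oAb libraries, against 4, 0, 4 and 4 in the scramble libraries. All 8 exposed libraries lay above all controls, with 1 control at 0. The normalised level was 1.76 ± 0.15 CPM in fAb, 1.87 ± 0.43 CPM in oAb and 0.19 ± 0.13 CPM in scramble libraries (SD, n = 4 each). Its log2 fold change was 3.24 ± 0.43 (SE) in fAb (adjusted p = 0.000195) and 3.30 ± 0.47 in oAb against scramble (adjusted p = 0.000297). Axl passed the filter on low counts only through the exposed libraries, where it was high. Without the filter it was also called, with an adjusted p of 0.000164 in fAb and 0.000214 in oAb against scramble. With these few counts the size of its change is the least precise among the markers.

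The stretch around the start of Axl (RefSeq, GRCm38.p6, chr7:25788684-25788983, minus strand, 250 bases before the start and 50 after it) is shown because Axl had the largest fold change of the markers. It is printed 5′ to 3′. None of the 5 motifs searched lies in it.
Axl: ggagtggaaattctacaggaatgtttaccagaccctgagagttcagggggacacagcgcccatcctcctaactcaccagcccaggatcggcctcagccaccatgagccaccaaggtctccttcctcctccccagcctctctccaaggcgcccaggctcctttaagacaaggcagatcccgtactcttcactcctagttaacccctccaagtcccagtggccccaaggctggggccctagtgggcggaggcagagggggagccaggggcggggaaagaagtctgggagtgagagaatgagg

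The other genes of the TAM system moved the opposite way. Of 4 listed genes, 3 were tested and all 3 fell in both comparisons. Mertk, encoding the related receptor, averaged 1.70 ± 0.24 CPM in fAb, 1.20 ± 0.35 CPM in oAb and 7.76 ± 1.55 CPM in scramble libraries. Its log2 fold change was -2.15 ± 0.19 in fAb and -2.67 ± 0.24 in oAb against scramble. Gas6, the ligand that binds Axl, had log2 fold changes of -2.58 ± 0.32 and -2.52 ± 0.24 in the same order. Pros1, encoding the ligand protein S, had -1.31 ± 0.21 in fAb and -1.76 ± 0.30 in oAb against scramble. The third receptor gene, Tyro3, was too low to test. Summed over the 4 genes, the level was 2.90 to 3.91 TPM (transcript abundance scaled by gene length and library total) in fAb, 2.15 to 3.27 TPM in oAb and 11.0 to 18.2 TPM in scramble libraries, and the ranges of exposed and control libraries did not meet.

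Spp1 (chr5:104435118-104441050, plus strand) encodes osteopontin, a secreted phosphoprotein that binds integrins and CD44. It had 2574, 2722, 2676 and 2533 CPM in the fAb libraries and 2353, 2393, 2604 and 2569 CPM in the oAb libraries, against 814, 826, 723 and 730 CPM in the scramble libraries. Every exposed library was far above every control, and the fAb and oAb libraries overlapped, although in TPM all fAb libraries lay above all oAb libraries. The log2 fold change was 1.80 ± 0.09 in fAb (adjusted p = 3.29e-07) and 1.68 ± 0.10 in oAb against scramble (adjusted p = 8.56e-07), a 3.49-fold and a 3.21-fold rise. By TPM, Spp1 ranked 20 among all genes in the fAb libraries and 24 in the oAb libraries, against 93 in the scramble libraries. Of its 50-base words, 11.6% also lie in Gm42793, a gene that overlaps 18.8% of its exon bases on the same strand and had 0 counts in all libraries.

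The first of the 2 RefSeq starts of Spp1 (GRCm38.p6, chr5:104434861-104435160, plus strand, 250 bases before it and 50 after it) is shown because Spp1 had the smallest adjusted p of the markers. The capitals mark a match, on the minus strand and from position -156 relative to the start, to the core of the interferon-stimulated response element (ISRE), GAAANNGAA. That core lies in 8.56% of 32851 mouse promoters of the same length, on either strand, and also in the promoter of Cd9, which fell.
Spp1: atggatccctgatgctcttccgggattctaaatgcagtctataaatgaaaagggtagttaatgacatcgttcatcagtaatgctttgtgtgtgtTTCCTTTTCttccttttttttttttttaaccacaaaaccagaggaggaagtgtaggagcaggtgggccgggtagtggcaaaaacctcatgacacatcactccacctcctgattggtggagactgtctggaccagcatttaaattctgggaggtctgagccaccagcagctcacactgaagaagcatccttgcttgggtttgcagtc

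Of 8 listed receptors of osteopontin, 6 were tested, of which 3 rose and 1 fell in each comparison. Itga5, an integrin alpha chain, averaged 780 ± 62.4 CPM in fAb, 852 ± 120 CPM in oAb and 93.5 ± 9.17 CPM in scramble libraries, with log2 fold changes of 3.10 ± 0.11 in fAb and 3.19 ± 0.14 in oAb against scramble. Cd44, a receptor for osteopontin and hyaluronan, had 2.11 ± 0.13 and 2.02 ± 0.15 in that order, and the integrin beta chain Itgb1 had 0.90 ± 0.10 and 0.87 ± 0.11. Itgb5, a partner of the integrin alpha V chain, fell by 2.35 ± 0.17 on the log2 scale in fAb and by 2.27 ± 0.16 in oAb against scramble. Itga4 and Itgav did not pass the test. Their log2 fold changes were 0.72 ± 0.32 and 0.48 ± 0.23 in fAb against scramble and 0.56 ± 0.33 and 0.36 ± 0.23 in oAb against scramble. Without scramble library 3, where more of all genes passed too, 5 of the 6 rose in fAb and 4 in oAb against scramble.

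Cst7 (chr2:150570415-150578944, plus strand) encodes cystatin F, an inhibitor of lysosomal cysteine proteases such as cathepsin C. It had 10.9, 12.3, 12.3 and 12.8 CPM in the fAb libraries and 11.2, 13.5, 12.5 and 14.3 CPM in the oAb libraries, against 7.44, 5.18, 8.91 and 6.20 CPM in the scramble libraries. All exposed libraries were above all controls, of which library 3 was the highest. Cst7 changed by 0.84 ± 0.17 on the log2 scale in fAb (adjusted p = 0.00226) and by 0.90 ± 0.18 in oAb against scramble (adjusted p = 0.00207). With the library set as a term, the change in fAb against scramble was 0.75 with an adjusted p of 0.0685.

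The start of Cst7 (RefSeq, GRCm38.p6, chr2:150570165-150570464, plus strand) is shown because it holds a match to the AP-1 motif TGANTCA, in capitals, at position -6 relative to the start. The motif reads the same on both strands.
Cst7: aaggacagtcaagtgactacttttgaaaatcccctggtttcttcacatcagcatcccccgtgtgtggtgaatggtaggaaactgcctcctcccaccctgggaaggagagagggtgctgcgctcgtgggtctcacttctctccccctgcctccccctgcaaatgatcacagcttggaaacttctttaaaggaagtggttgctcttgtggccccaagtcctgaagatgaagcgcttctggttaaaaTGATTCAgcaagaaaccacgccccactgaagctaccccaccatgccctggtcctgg

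The same motif was found at the starts of Igf1, which rose, and Gpnmb, which did not pass the test. It lies in 7.81% of all 32851 promoters. The other motifs searched on both strands were the E-box CACGTG, in none of the marker promoters and 7.15% of all, and the M-box CATGTG, in that of Cd9 and 14.15% of all. A kappaB site, searched by its consensus, was found in that of Lgals3 and 8.46% of all. RefSeq promoters were matched for 8 of the 10 markers.

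In the list of cystatins and the proteases they inhibit, 3 of 8 genes rose and 4 fell in each comparison, and among its 6 proteases 2 rose and 3 fell. Ctsc, encoding cathepsin C, averaged 425 ± 30.0 CPM in fAb, 436 ± 31.9 CPM in oAb and 187 ± 7.18 CPM in scramble libraries. Ctsc had a log2 fold change of 1.22 ± 0.08 in fAb and 1.22 ± 0.09 in oAb against scramble. Lgmn, encoding the lysosomal protease legumain, averaged 126 ± 6.45 CPM in fAb, 133 ± 3.87 CPM in oAb and 456 ± 72.2 CPM in scramble libraries, and fell by 1.82 ± 0.12 and 1.78 ± 0.12 on the log2 scale against scramble. The cathepsin genes Ctsl and Ctsh and the inhibitor gene Cst3 (cystatin C) fell in both comparisons. The count of Ctsl is less certain, since other genes overlap 6.09% of its exon bases on the same strand and 26.85% on the other. Fdft1 overlaps 12.79% of the exon bases of Ctsb on the other strand. For Cst3 the log2 fold change was -1.46 ± 0.31 in fAb and -0.95 ± 0.32 in oAb against scramble, and without scramble library 3 its call in oAb was lost. Under upper quartile scaling, Ctsb and Cstb, the other risers, lost their calls in both comparisons.

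Igf1 (chr10:87858265-87937042, plus strand) encodes insulin-like growth factor 1, a secreted growth factor. It had 232, 241, 237 and 229 CPM in the fAb libraries and 223, 207, 242 and 224 CPM in the oAb libraries, against 196, 177, 119 and 188 CPM in the scramble libraries. The exposed libraries were all above the controls, of which library 3 was the lowest. In TPM, Igf1 overlapped between exposed and control libraries. Igf1 had a log2 fold change of 0.50 ± 0.14 in fAb (adjusted p = 0.0140) and 0.40 ± 0.15 in oAb against scramble (adjusted p = 0.0484). Without scramble library 3 it was 0.37 (adjusted p = 0.000142) in fAb and 0.26 (adjusted p = 0.00735) in oAb against scramble. In TPM, however, the controls without that library averaged 61.1 ± 4.64, beside 66.9 ± 3.89 in fAb and 60.3 ± 3.69 in oAb libraries. A rise of Igf1 in oAb is thus not seen in TPM without it. The call in oAb was lost without the filter, with a replicate block, with the library set as a term, within the Timm23 set and under upper quartile scaling, with adjusted p-values of 0.0503 to 0.200. That in fAb was lost under upper quartile scaling (adjusted p = 0.0790) and with the library set as a term (adjusted p = 0.319). Leaving out any oAb library, or scramble library 2 or 4, also ended the call in oAb, with adjusted p-values of 0.0578 to 0.116. In the authors' deposited table the adjusted p of Igf1 was 0.0162 for fAb and 0.0898 for oAb.

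The start of Igf1 (RefSeq, GRCm38.p6, chr10:87860861-87861160, plus strand) is shown beside that of Cst7, since both rose and both hold an AP-1 match. Here it lies at position -37 relative to the start, in capitals.
Igf1: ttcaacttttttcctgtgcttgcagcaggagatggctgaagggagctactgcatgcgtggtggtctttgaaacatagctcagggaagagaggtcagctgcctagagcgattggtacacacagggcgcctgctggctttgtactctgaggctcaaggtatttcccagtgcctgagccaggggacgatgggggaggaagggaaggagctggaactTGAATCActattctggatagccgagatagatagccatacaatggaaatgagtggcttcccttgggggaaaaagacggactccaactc

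In the list of the IGF axis, 5 of 12 genes were tested, of which 1 rose and 3 fell in each comparison. Igfbp4, which encodes a binding protein that holds IGF1 away from its receptor, averaged 16.1 ± 2.13 CPM in fAb, 21.7 ± 0.73 CPM in oAb and 149 ± 48.6 CPM in scramble libraries. Its log2 fold change was -3.18 ± 0.24 in fAb and -2.77 ± 0.21 in oAb against scramble. Irs2, an adaptor below the insulin and IGF1 receptors, had -2.83 ± 0.21 and -2.96 ± 0.24, and the receptor gene Igf1r had -0.52 ± 0.16 and -0.46 ± 0.16, each in fAb and then in oAb against scramble. Igf2r, a receptor that carries IGF2 and lysosomal enzymes, rose by 1.22 ± 0.18 in fAb and by 1.01 ± 0.18 in oAb against scramble on the log2 scale.

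Lgals1 (chr15:78926725-78930465, plus strand) and Lgals3 (chr14:47367751-47386160, plus strand) encode galectins, proteins that bind beta-galactoside sugars on glycoproteins. Lgals1 had 356, 383, 410 and 396 CPM in the fAb libraries and 365, 391, 440 and 448 CPM in the oAb libraries, against 388, 379, 747 and 401 CPM in the scramble libraries. The 3 other controls lay within the range of the exposed libraries, and scramble library 3 lay above all 11 others. In TPM, by contrast, all exposed libraries lay below all controls, at 1146 to 1251 TPM in fAb, 1110 to 1305 TPM in oAb and 1358 to 2015 TPM in scramble libraries. The log2 fold change was -0.28 ± 0.22 in fAb (adjusted p = 0.312) and -0.22 ± 0.22 in oAb against scramble (adjusted p = 0.434). Without scramble library 3 it was 0.03 in fAb (adjusted p = 0.644) and 0.08 in oAb (adjusted p = 0.413).

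Lgals3 had 891, 816, 913 and 910 CPM in the fAb libraries and 1101, 1170, 884 and 990 CPM in the oAb libraries, against 860, 1099, 1921 and 1196 CPM in the scramble libraries. The Timm23 set held the 5 highest libraries (oAb 1 and 2 and scramble 2, 3 and 4), and in the Gm10273 set scramble library 1 lay among the fAb libraries. In TPM all fAb libraries lay below all controls, while oAb and scramble libraries overlapped. The log2 fold change was -0.49 ± 0.22 in fAb (adjusted p = 0.0875) and -0.29 ± 0.23 in oAb against scramble (adjusted p = 0.311), neither past the threshold. With the library set as a term it was 0.09 in fAb (adjusted p = 0.842) and -0.15 in oAb against scramble (adjusted p = 0.555). In fAb the value rests on scramble library 1 as the lone control of its set. Without that library it was -0.65 with an adjusted p of 0.0166, and without scramble library 3 it was -0.21 with an adjusted p of 0.0993.

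Other galectins rose. Of 5 listed, 3 were tested and all 3 passed in both comparisons. Lgals9, encoding galectin 9, averaged 268 ± 10.9 CPM in fAb, 274 ± 26.6 CPM in oAb and 3.56 ± 1.33 CPM in scramble libraries. For Lgals9 the log2 fold change was 6.29 ± 0.23 in fAb and 6.28 ± 0.24 in oAb against scramble. Lgals8, encoding galectin 8, had 1.63 ± 0.10 and 1.58 ± 0.11, and Lgalsl, a galectin-related gene, had 1.38 ± 0.16 and 1.20 ± 0.16, in fAb and then in oAb against scramble. These calls did not depend on scramble library 3 or on upper quartile scaling. The summed TPM of Lgals9, Lgals8, Lgalsl, Lgals4 and Lgals12 was 457 to 502 in fAb, 424 to 481 in oAb and 35.2 to 61.2 in scramble libraries.

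Cd9 (chr6:125460266-125494791, minus strand) encodes a tetraspanin, a membrane protein that organises other membrane proteins and is common on extracellular vesicles. It was the marker that fell. Cd9 had 283, 288, 278 and 271 CPM in the fAb libraries and 252, 263, 269 and 269 CPM in the oAb libraries, against 385, 367, 378 and 320 CPM in the scramble libraries. All exposed libraries were below all controls, and in these values the fAb libraries lay just above the oAb libraries. For Cd9 the log2 fold change was -0.34 ± 0.09 in fAb (adjusted p = 0.0081) and -0.46 ± 0.09 in oAb against scramble (adjusted p = 0.00198). In the authors' deposited table its adjusted p was 0.146 for fAb and 0.0352 for oAb, so that the call for fAb depends on the test. Within the Timm23 set, with 2 oAb and 3 scramble libraries, the change in oAb was -0.45 with an adjusted p of 0.0520. Of its 50-base words, 5.67% are shared with other genes, and the antisense gene Gm26728 overlaps 10.7% of its exon bases.

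Cd63 (chr10:128900989-128912822, plus strand) encodes a tetraspanin of late endosomes and lysosomes. It had 119, 117, 118 and 120 CPM in the fAb libraries and 115, 114, 118 and 123 CPM in the oAb libraries, against 102, 96.9, 166 and 109 CPM in the scramble libraries. The exposed libraries lay close together, above 3 controls and below scramble library 3. With all controls the log2 fold change was 0.04 ± 0.17 in fAb (adjusted p = 0.870) and -0.01 ± 0.16 in oAb against scramble (adjusted p = 0.972). Without scramble library 3 it was 0.25 in fAb (adjusted p = 0.00300) and 0.20 in oAb (adjusted p = 0.0198), both past the threshold. Within the Gm10273 set, with scramble library 1 as the lone control, it was 0.28 in fAb (adjusted p = 0.00787). In TPM, by contrast, the controls without library 3 averaged 90.0 ± 4.08, beside 90.7 ± 3.52 in fAb and 84.9 ± 2.35 in oAb libraries. The call of Cd63 thus depends on scramble library 3, and the rise without that library is not seen in TPM. Of its 50-base words, 11.0% lie in other genes, among them the copy Cd63-ps, so that its count is less certain than those of the markers with no shared word.

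Among 9 other tetraspanin genes tested of 11 listed, 2 rose in each comparison, and 5 fell in fAb and 4 in oAb against scramble. Cd81, encoding a close partner of CD9, fell by 1.89 ± 0.13 in fAb and by 1.96 ± 0.13 in oAb against scramble on the log2 scale. Cd82 rose by 1.42 ± 0.14 in fAb and by 1.51 ± 0.13 in oAb against scramble. Tspan14 had log2 fold changes of -0.80 ± 0.08 in fAb and -0.97 ± 0.11 in oAb against scramble. Under upper quartile scaling the counts in oAb were 1 higher and 7 lower.

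Fabp5 (chr3:10012548-10016607, plus strand) encodes a cytosolic protein that binds fatty acids. It had 347, 364, 362 and 340 CPM in the fAb libraries and 317, 334, 332 and 346 CPM in the oAb libraries, against 231, 211, 310 and 209 CPM in the scramble libraries. The exposed libraries were all above the controls, of which library 3 came nearest to them, and in TPM all fAb libraries also lay above all oAb libraries. Fabp5 had a log2 fold change of 0.59 ± 0.13 in fAb (adjusted p = 0.00464) and 0.47 ± 0.13 in oAb against scramble (adjusted p = 0.0147). The call was lost in oAb under upper quartile scaling (adjusted p = 0.0926) and within the Timm23 set (adjusted p = 0.172), and in fAb with the library set as a term (adjusted p = 0.0536). In all, 5.48% of the 50-base words of Fabp5 are shared with other genes.

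Most tested genes of fatty acid uptake and storage rose with it. Of 10 listed, 8 were tested, and 7 rose and 1 fell in each comparison. Over all genes tested, 27.6% were higher in fAb and 25.2% in oAb against scramble. Fabp3, encoding another fatty acid binding protein, averaged 7.40 ± 1.04 CPM in fAb, 8.46 ± 0.82 CPM in oAb and 1.08 ± 0.50 CPM in scramble libraries. Its log2 fold change was 2.83 ± 0.27 in fAb and 2.98 ± 0.26 in oAb against scramble, and 29.2% of its 50-base words are shared with a pseudogene. Fabp4, of the same family, had 1.62 ± 0.17 and 1.43 ± 0.15, and Lpl, the lipase that frees fatty acids from lipoproteins, had 1.31 ± 0.12 and 1.16 ± 0.14. Dgat2, which makes triglycerides, had 1.5 ± 0.14 and 1.63 ± 0.11, whereas Dgat1, which catalyses the same step, had -0.74 ± 0.17 and -0.65 ± 0.16. Each pair of values is for fAb and then for oAb against scramble.

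Gpnmb (chr6:49036546-49070929, plus strand) encodes a membrane glycoprotein of late endosomes and lysosomes. It had 2337, 2227, 2274 and 2256 CPM in the fAb libraries and 2468, 2486, 2260 and 2464 CPM in the oAb libraries, against 2647, 2590, 2786 and 2828 CPM in the scramble libraries. In these values all exposed libraries were below all controls by a small margin, whereas in TPM exposed and control libraries overlapped. The log2 fold change was -0.22 ± 0.09 in fAb (adjusted p = 0.0565) and -0.16 ± 0.09 in oAb against scramble (adjusted p = 0.176). Neither passed the threshold. Gpnmb in fAb passed it without scramble library 3 (-0.20, adjusted p = 0.00753), with DESeq2 (-0.19, adjusted p = 0.00166) and with limma voom (-0.22, adjusted p = 0.0387). Under upper quartile scaling 3 of the 10 markers were called lower in fAb and 2 in oAb against scramble, so markers beyond Cd9 fell there.

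Gpnmb is a known target of the MiT/TFE transcription factors, which control lysosomal genes. All 4 genes of these factors were tested, and 2 rose and 1 fell in each comparison. Tfec averaged 17.1 ± 1.09 CPM in fAb, 15.6 ± 2.59 CPM in oAb and 5.51 ± 0.15 CPM in scramble libraries, and rose by 1.67 ± 0.10 in fAb and by 1.5 ± 0.14 in oAb against scramble on the log2 scale. Tfeb averaged 4.00 ± 0.80 CPM in fAb, 7.10 ± 3.02 CPM in oAb and 16.1 ± 5.77 CPM in scramble libraries. Its log2 fold change was -1.97 ± 0.30 in fAb and -1.17 ± 0.36 in oAb against scramble, and without scramble library 3 its call in oAb was lost. Tfe3 rose slightly, by 0.30 ± 0.11 in fAb and by 0.37 ± 0.10 in oAb against scramble, but not under upper quartile scaling. Mitf did not pass the test, with 0.14 ± 0.17 in fAb and 0.01 ± 0.17 in oAb against scramble.

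**Figure D2:**
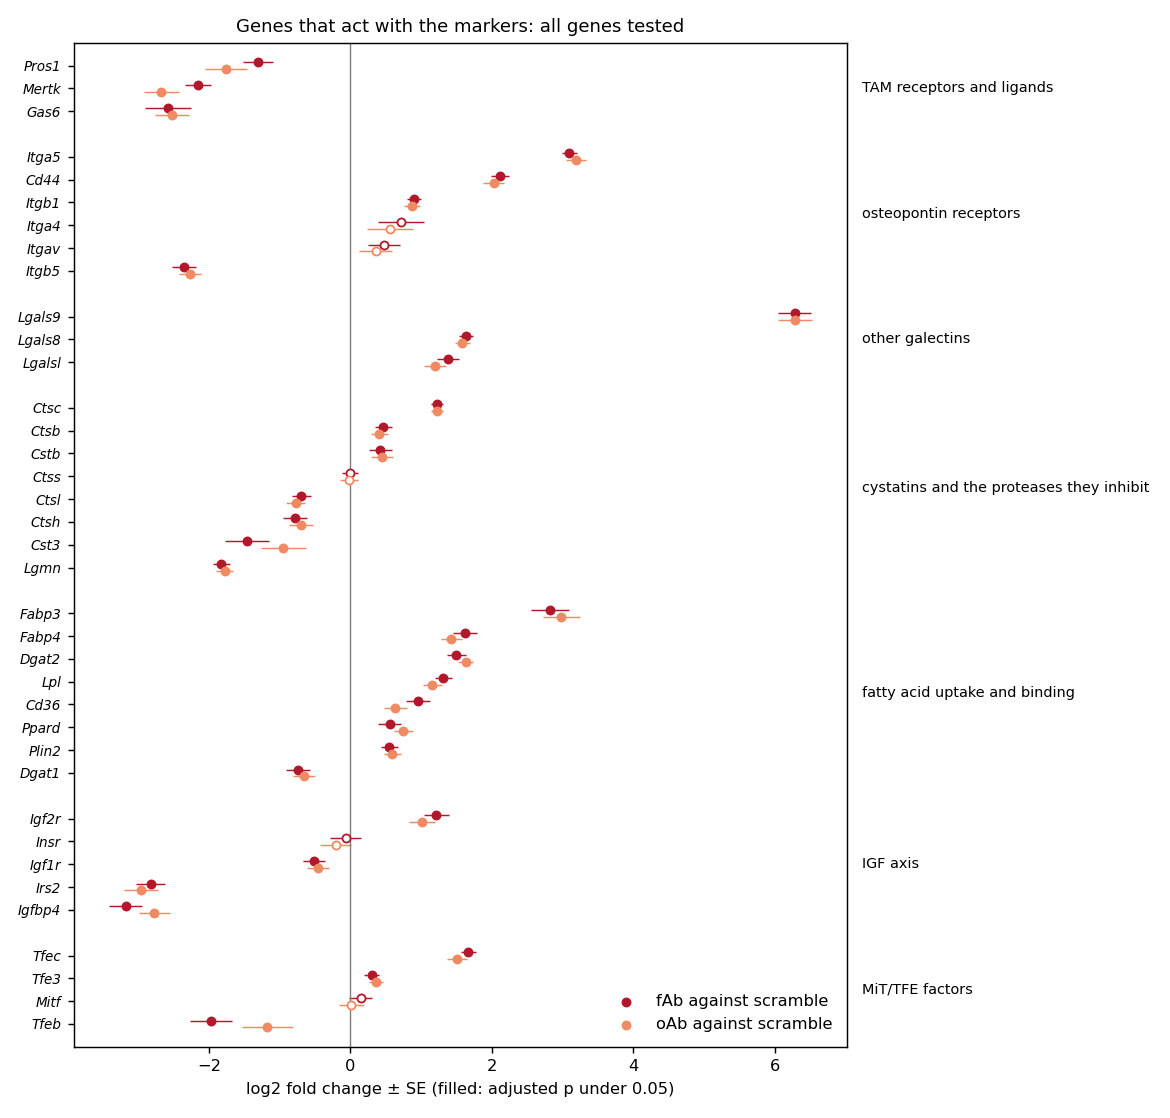
Log2 fold change ± SE of every tested gene in the lists of genes that act with the markers, for fAb against scramble and oAb against scramble. Filled points passed the adjusted threshold of 0.05. The TAM genes lie left of 0, the other galectins right of 0, and the remaining lists hold genes on both sides.

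In length-scaled values the markers spanned a wide range. In the fAb libraries the order of mean TPM was Spp1 (4499 ± 295), Lgals3 (1338 ± 40.4), Lgals1 (1205 ± 47.7), Gpnmb (985 ± 48.9), Cd9 (387 ± 26.3), Fabp5 (280 ± 17.6), Cd63 (90.7 ± 3.52), Igf1 (66.9 ± 3.89), Cst7 (34.5 ± 2.00) and Axl (0.98 ± 0.05), and no neighbours in that order overlapped. The oAb libraries had the same order, with 4002 ± 137 TPM for Spp1, and there Lgals3 (1486 ± 199) and Lgals1 (1210 ± 95.4) overlapped. In the scramble libraries Lgals3 (1996 ± 398) came first, then Lgals1 (1548 ± 313), Spp1 (1431 ± 273) and Gpnmb (1260 ± 150), and each of these overlapped the next. The lower 6 kept their places below Gpnmb. Summed over the 10 markers, the level was 8426 to 9353 TPM in fAb, 8339 to 8583 TPM in oAb and 6942 to 7463 TPM in scramble libraries. Without Spp1 the order was the other way round, and the other 9 summed to 4259 to 4477 TPM in fAb, 4201 to 4592 TPM in oAb and 5391 to 6396 TPM in scramble libraries. Most of that sum is Lgals3, Lgals1 and Gpnmb, none of which passed the test. Fabp5, Igf1, Cst7 and Axl, which rose, add little to it.

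**Figure D3:**
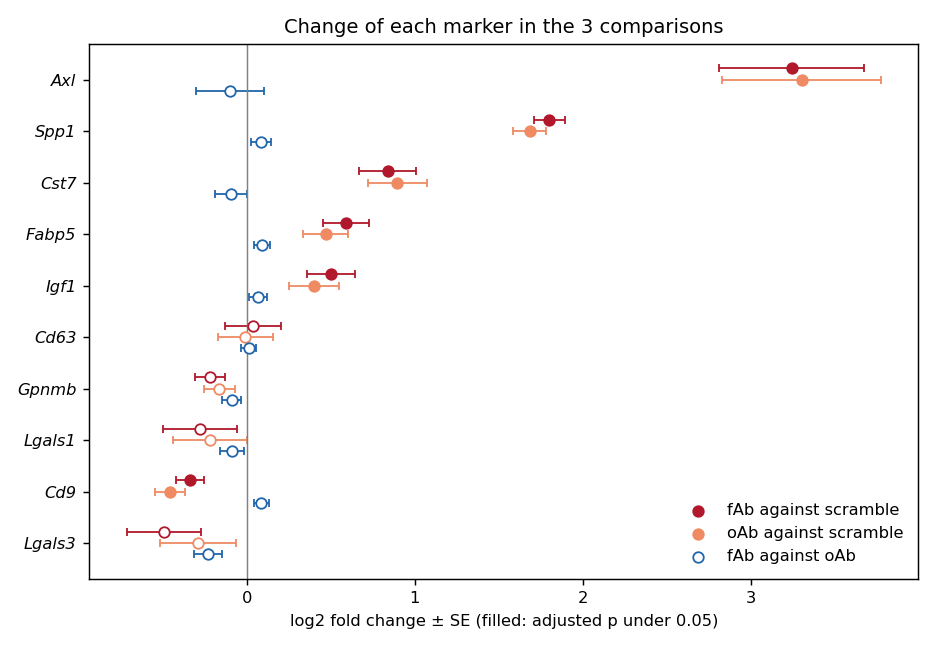
Log2 fold change ± SE of each marker, from the top down in falling order of the change in fAb against scramble, for the 3 comparisons. Filled points passed the adjusted threshold of 0.05. The changes in fAb and in oAb against scramble lie close together for each marker, and no marker passed in fAb against oAb.

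The 2 preparations were compared directly to ask whether the markers differed between them. None of the 10 passed, as none of 10878 genes tested did (0.00%), although 1391 genes had an unadjusted p under 0.05 in edgeR, DESeq2 called 18 and limma voom called 0. Lgals3 alone of the markers had an unadjusted p under 0.05 by edgeR, with a log2 fold change of -0.23 ± 0.08 in fAb against oAb (adjusted p = 0.375). Within the Gm10273 set, where 4 fAb and 2 oAb libraries can be compared, it was -0.07. The adjusted p of the other markers was 0.410 to 0.921.

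The intervals of these differences limit their size. That of Lgals3, from -0.42 to -0.05, was the only one of the 10 to leave out 0. For Spp1 the log2 fold change of fAb against oAb was 0.08 with a 95% interval of -0.04 to 0.21, and for Cd63 0.01 (-0.08 to 0.11). It was -0.09 (-0.30 to 0.12) for Cst7 and 0.07 (-0.05 to 0.18) for Igf1. For Fabp5 it was 0.09 (-0.02 to 0.19) and for Cd9 0.09 (-0.01 to 0.19). Gpnmb had -0.09 (-0.21 to 0.03) and Lgals1 -0.09 (-0.24 to 0.07). The widest interval was that of Axl, from -0.54 to 0.34 around -0.10, so that a difference of that size was not detectable at its depth.

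**Figure D4:**
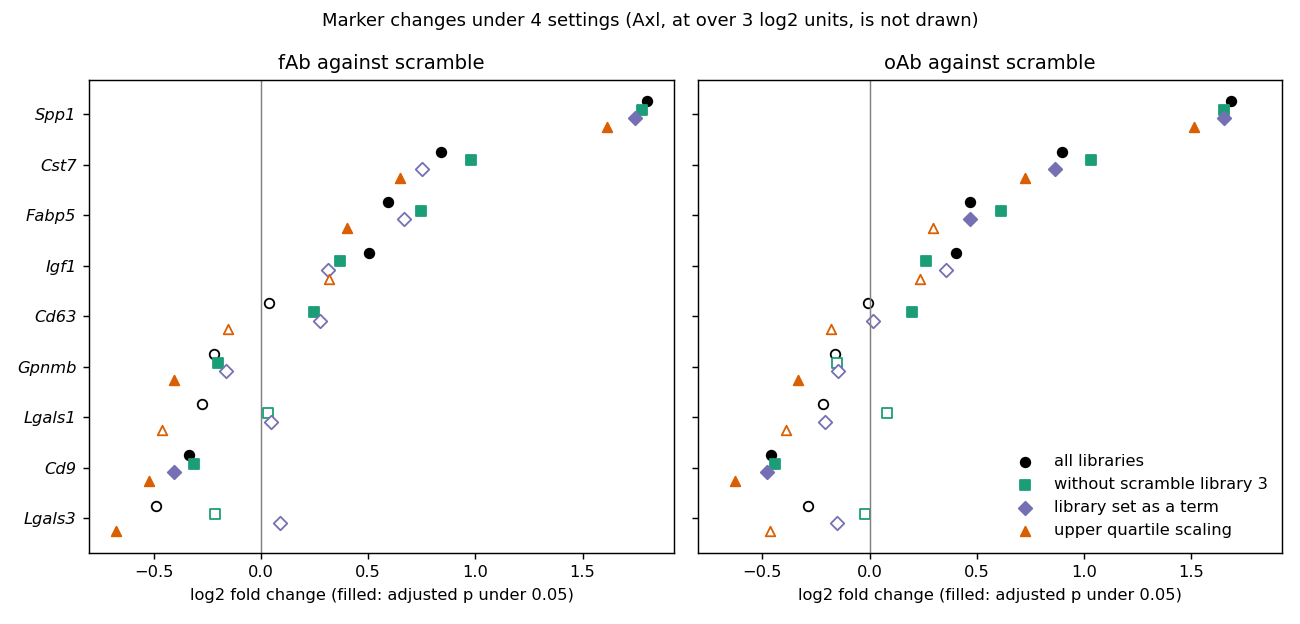
Log2 fold change of each marker except Axl against scramble, for fAb on the left and oAb on the right, with all libraries, without scramble library 3, with the library set as a term and under upper quartile scaling. Filled points passed the adjusted threshold of 0.05. Spp1 and Cd9 were called under all 4 settings in both panels, whereas leaving out scramble library 3 moved Lgals1 and Lgals3 towards or past 0 and moved Cd63 to a called rise.

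The wider programme was described with lists of other genes. Of all genes tested, 27.6% were higher and 28.8% lower in fAb, and 25.2% and 27.0% in oAb against scramble. Of 34 other disease-associated microglia genes, 32 were tested. In fAb against scramble 15 rose, 9 fell and 8 did not pass, with a median log2 fold change of 0.29, and in oAb against scramble 16 rose, 9 fell and 7 did not pass, with a median of 0.26. Csf1, a growth factor for macrophages, had log2 fold changes of 3.71 ± 0.13 in fAb and 3.77 ± 0.13 in oAb against scramble, and Lgals3bp, which encodes a protein that binds galectin 3, had 2.99 ± 0.14 and 3.15 ± 0.12. Among those that fell, Ank, a pyrophosphate transport gene, had -2.40 ± 0.09 and -2.39 ± 0.09, and Timp2, an inhibitor of metalloproteinases, had -3.32 ± 0.16 and -3.22 ± 0.16. Trem2, the receptor on which the full state depends in mice, had -2.08 ± 0.20 and -1.96 ± 0.20, and the phagocytic receptor Clec7a had -1.65 ± 0.10 and -1.71 ± 0.15. Further genes that rose were Cybb, with 2.36 ± 0.17 and 2.26 ± 0.19, and Itgax, with 2.16 ± 0.20 and 1.99 ± 0.21. Without scramble library 3, where more of all genes passed too, 18 of the 32 tested genes of the list rose and 9 fell in either comparison. The list shares Lpl and Plin2 with the fatty acid list, Ctsb and Ctsl with the protease list, and Tyrobp and Cd68 with the general microglia and macrophage list.

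Of 16 homeostatic microglia genes, 13 were tested, and 11 fell and 1 rose in each comparison. The median log2 fold change was -1.46 in fAb and -1.42 in oAb against scramble. Gpr34, a lysophospholipid receptor, had -4.86 ± 0.35 and -5.23 ± 0.44, and the purinergic receptor genes P2ry13 -2.72 ± 0.20 and -3.42 ± 0.21 and P2ry12 -2.92 ± 0.29 and -2.63 ± 0.33, in fAb and then in oAb against scramble. Fcrls, of the same list, had -2.27 ± 0.15 and -2.21 ± 0.22, and Cx3cr1, the fractalkine receptor gene, rose by 0.59 ± 0.10 and by 0.62 ± 0.13, in the same order. Gpr34 had 10 counts in all in the fAb, 7 in the oAb and 311 in the scramble libraries. It passed the filter on low counts only through the controls, where it was high, so the size of its change is imprecise. Tmem119, Siglech and Sall1, which mark microglia in the brain, were too low to test.

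**Figure D5:**
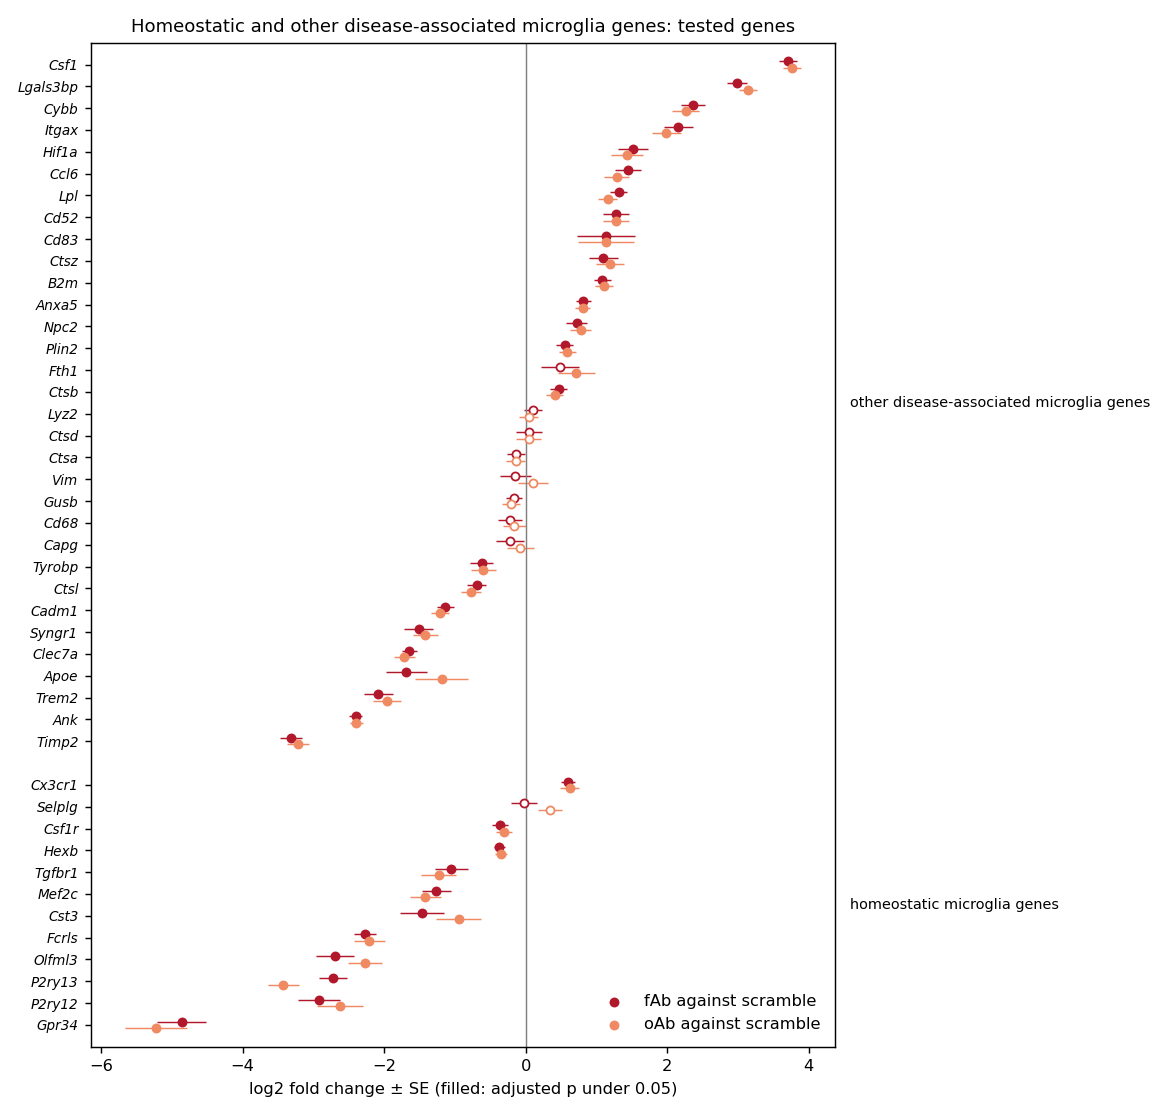
Log2 fold change ± SE of tested genes of the lists of other disease-associated (above) and homeostatic (below) microglia genes, for fAb against scramble and oAb against scramble. Filled points passed the adjusted threshold of 0.05. Both preparations place the first list on both sides of 0 and nearly all of the second list left of it.

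The identity of the cells was checked with 10 general genes of microglia and macrophages, all of which were tested. Their summed level was 5535 to 5902 TPM in fAb, 5430 to 6148 TPM in oAb and 6925 to 7833 TPM in scramble libraries. In fAb against scramble 2 rose and 4 fell, and in oAb against scramble 2 rose and 3 fell. Adgre1, which encodes the macrophage protein F4/80, rose by 1.04 ± 0.08 in fAb and by 0.93 ± 0.09 in oAb against scramble on the log2 scale. Among those that fell, Laptm5, which encodes a lysosomal membrane protein, had log2 fold changes of -1.22 ± 0.15 in fAb and -1.16 ± 0.16 in oAb against scramble, and Tyrobp, the signalling adaptor of TREM2, had -0.62 ± 0.17 and -0.60 ± 0.17. Markers of other brain cells were mostly near 0. Under 1 TPM in every library were 5 of 6 neuron, 5 of 6 astrocyte, 4 of 6 oligodendrocyte and 4 of 6 fibroblast markers. The neuron list summed to 1.85 to 2.28 TPM in fAb, 1.90 to 2.31 TPM in oAb and 0.14 to 0.72 TPM in scramble libraries, and the fibroblast list to 1.80 to 2.06, 1.61 to 2.34 and 0 to 0.07 TPM in the same groups. The astrocyte list summed to 85.3 to 88.5 TPM in fAb, 74.6 to 81.9 TPM in oAb and 93.8 to 108 TPM in scramble libraries, and the oligodendrocyte list to 39.4 to 42.2, 38.8 to 43.5 and 49.1 to 70.3 TPM. Dcn (fibroblast), Map2 (neuron) and Gja1 (astrocyte) rose, with log2 fold changes of 6.80, 2.15 and 1.98 in fAb against scramble. In oAb against scramble these were 6.94, 2.24 and 1.43. Mbp (oligodendrocyte) fell, with -1.18 in fAb and -1.31 in oAb. Cnp (oligodendrocyte) rose in oAb only, and Aldoc (astrocyte) did not pass. The part of these markers in the results was not tested.

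Genes with the profile most like that of each called marker were found by the root mean squared difference of centred log2 CPM over the 12 libraries. For Spp1 the nearest was Tnip3 (0.07) and then Aida (0.08). For Axl they were Trem1 (0.27) and Slpi (0.33). Cst7 had Ppp1r11 (0.10) and Tuba1c (0.11), Fabp5 had Selenok (0.05) and Itpa (0.05), Igf1 had Alcam (0.03) and Gna13 (0.04), and Cd9 had Cops3 (0.04) and Ncbp2 (0.05). The likeness covers the change between groups and the deviation of scramble library 3 together, since both enter the 12 values.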

How the data were processed

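RNA was taken by spin column from 12 IMG samples and made into stranded mRNA libraries from total RNA, per the labels' protocols. The genome build was mm10 according to the submitters' processing notes, with aligner, counter and use of strand not given in the sources used here. Deposited by the authors were 2 tables, 1 per treatment with the same controls, holding whole-number counts, RPKM and TPM per gene, per the file headers. The control counts and TPM were identical in both. The deposited columns named CPM, a signal, and the RPKM were not used. The authors' deposited table also holds a signed fold change (a score), a log2 fold change and p-values from a test not named here.

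Samples were grouped by title. Counts were tested in edgeR 4.0.16 (R 4.3.3) on the 8 libraries of each comparison, with filterByExpr (minimum count 10), TMM scaling, a robust quasi-likelihood F test and Benjamini-Hochberg adjustment at 0.05. SE is the size of the log2 fold change over the square root of F. Levels of 1 gene are CPM scaled by TMM over 12 libraries, and levels between genes are the deposited TPM. Depth, 13638721 to 18124419 counts a library, sets the precision. No pair of libraries agreed within counting noise.

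The markers, gene lists and library sets were chosen with earlier results of these data known. Named genes are the markers, genes with the smallest adjusted p in each list, genes that a marker's role turns on, and the 2 nearest profiles among genes with a mean of at least 2 CPM. Trem2, Clec7a, Cybb, Itgax, P2ry12 and Cx3cr1 were named outside these rules. A listed gene is not reported here. Other settings tried were scaling by upper quartile or by DESeq2 size factors, no filter, a joint fit of all 12 libraries, a replicate block, limma voom (limma 3.58.1), DESeq2 1.42.0, the library set as a term, fits within a set, a 1.5-fold minimum and leaving out each library. Same-numbered libraries had correlations of 0.13 to 0.26 in fAb against scramble. Differently numbered ones ran from -0.47, for fAb library 4 and scramble library 1, to 0.55, for fAb library 2 and scramble library 1. Whether the numbers mark pairs was not tested. No label says what a number shares. Words of 50 bases came from GENCODE M21 transcripts and promoters from RefSeq.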

Additional observations from a re-analysis of the deposited data

Results flagged for a closer look

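In groups of 4 libraries, a library was singled out where its gap to the nearest other, as a share of the group's range, exceeded Dixon's 95% critical value, which chance alone gives in about 1 in 20 groups. Of 30 groups (10 markers in 3 groups), 2 were singled out. Lgals1 in scramble library 3 had 747 CPM, with the next control at 401 CPM. The same library had the highest level of the 4 controls for Lgals3, Cd63, Fabp5, Cst7 and Axl and the lowest for Igf1 and Spp1. Gpnmb in oAb library 3 had 2260 CPM, with the nearest oAb library at 2464 CPM.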

How the results depend on the processing

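Of the single-marker values under other settings, 502 kept their direction or stayed uncalled, 26 lost their call, 11 gained one and 1 reversed. These include fAb against oAb, where no marker was called with all libraries and none could lose a call. The 502 therefore overstate how stable the calls against scramble are. Cd63 in oAb against scramble was -0.01 with all libraries and turned to a called 0.20 without scramble library 3, with -0.094 to 0.20 over all libraries left out in turn. Upper quartile scaling moved the median log2 fold change of all genes to -0.24 in oAb and -0.23 in fAb against scramble, from -0.07 and -0.04, and gave 2127 higher and 4015 lower genes in oAb, and 2273 and 4361 in fAb, in place of 2777 and 2984, and 3051 and 3184. It left 3 markers higher and 2 lower in oAb, and 3 lower in fAb against scramble, and turned the uncalled Cd63 in fAb to -0.15. A 1.5-fold minimum gave 2604 genes with 2 markers higher and 0 lower in oAb, and 2863 genes with 2 higher and 0 lower in fAb against scramble. Within the Timm23 set, oAb against scramble gave 3792 genes, 3 markers higher and 0 lower. With the library set as a term, fAb against scramble gave 3844 genes and 2 markers higher, resting on 1 control in its set. In fAb against scramble 2 markers were lower by DESeq2 and by limma voom and 3 with all 12 libraries in the fit. DESeq2 called 18 genes in fAb against oAb. The cause of these shifts was not tested, other than by the construction of each setting.

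Leaving out each library in turn gave 4962 to 7174 genes in oAb and 5517 to 7598 in fAb against scramble, the highest without scramble library 3, with 4 to 6 and 5 to 6 markers higher and 1 and 1 to 2 lower. In fAb against oAb no such fit called a gene. In oAb against scramble the replicate block gave 5081 genes and took the call of Igf1 (adjusted p = 0.0861). Same-numbered libraries there had correlations of -0.29 to 0.08, and what they share beyond a number was not tested. In fAb against scramble the block gave 6292 genes and changed no call of a marker. The low counts of Axl limit the precision of its change, and scramble library 3 limits that of Cd63, Lgals1 and Lgals3.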
